A study of Mus musculus with 23 samples.

Results

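A group of 9 genes of antimicrobial peptides and proteins was followed in the punched mouse ear: the beta-defensins Defb1, Defb3, Defb4 and Defb14, the cathelicidin Camp, the lipocalin Lcn2, the protease inhibitor Slpi, the peptidoglycan binder Pglyrp1, and 2610528A11Rik, whose product is the GPR15 ligand Gpr15lg. They were found as rows of the deposited array table annotated to these symbols. All 9 were there, each with 1 row, among 19938 named genes. The tissue was ear pinna of 4-week-old female mice on Affymetrix Mouse Gene 1.0 ST arrays. Mice homozygous for the cub allele of Rhbdf2 (Rhbdf2cub/cub), called cub here, had the strain label B6.Cg-Rhbdf2cub/J. They were compared with Rhbdf2+/+ mice, called wild type, of strain C57BL/6J. Strain label and genotype go together, so other differences between these strains and the allele cannot be told apart. Ears were sampled unwounded at 0 h, and at 15 min, 2 h and 24 h after a 2-mm hole had been punched, when a 3-mm biopsy took the rim of the hole. Which piece of ear was taken at 0 h is not stated in the labels, so wounding and the piece of tissue cannot be told apart in comparisons with 0 h. There were 11 cub arrays (3 per time, but 2 at 15 min) and 12 wild-type arrays (3 per time), each labelled as a biological replicate.

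Beta-defensins are small cationic peptides that damage microbial membranes. In epithelia some are made all the time, with mouse Defb1 as the usual example, and others are switched on by injury, microbes and cytokines such as interleukin 1 and interleukin 17. Lcn2 starves bacteria of iron by binding their siderophores, Pglyrp1 binds the peptidoglycan of bacterial walls, Slpi blocks neutrophil elastase and cathepsin G, and Camp is stored as a precursor in neutrophil granules and is also made by keratinocytes. The GPR15 ligand is an epithelial chemoattractant for T cells with antimicrobial activity. Rhbdf2 encodes iRhom2, a partner of the sheddase ADAM17, which frees ligands of the EGF receptor and TNF.

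Of the genes, 6 had a promoter window in the RefSeq table used here (GRCm38.p6, 250 bases before the start site and 50 from it on). Those of Lcn2, Slpi, Defb3 and 2610528A11Rik are shown because these genes rose together at 24 h, and that of Camp because it did not. The window of Pglyrp1, which also rose at 24 h, is not shown, and its match is given below. Capitals mark matches to 5 motifs that were searched on both strands. These were TTGCNNAA for C/EBP factors, TTCNNNGAA for STAT factors, TGANTCA with C or G at N for AP-1, an NF-kB motif, and the TATA box motif TATAAA. Lcn2 lies at chr2:32387690-32387989 (minus strand), Slpi at chr2:164356458-164356757 (minus strand), Defb3 at chr8:19293111-19293410 (plus strand), 2610528A11Rik at chr14:37110052-37110351 (minus strand) and Camp at chr9:109849407-109849706 (minus strand).
Lcn2: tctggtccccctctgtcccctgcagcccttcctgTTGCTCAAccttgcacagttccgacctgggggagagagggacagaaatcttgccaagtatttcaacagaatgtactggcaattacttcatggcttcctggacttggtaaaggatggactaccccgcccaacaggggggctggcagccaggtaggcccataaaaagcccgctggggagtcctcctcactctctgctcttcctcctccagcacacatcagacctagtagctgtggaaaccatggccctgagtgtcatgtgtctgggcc
Slpi: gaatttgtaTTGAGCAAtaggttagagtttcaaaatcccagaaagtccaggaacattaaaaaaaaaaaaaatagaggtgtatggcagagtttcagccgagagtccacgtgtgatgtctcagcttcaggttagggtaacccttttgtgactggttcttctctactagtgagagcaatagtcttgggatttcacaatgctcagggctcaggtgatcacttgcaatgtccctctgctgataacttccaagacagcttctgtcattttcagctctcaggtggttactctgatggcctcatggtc
Defb3: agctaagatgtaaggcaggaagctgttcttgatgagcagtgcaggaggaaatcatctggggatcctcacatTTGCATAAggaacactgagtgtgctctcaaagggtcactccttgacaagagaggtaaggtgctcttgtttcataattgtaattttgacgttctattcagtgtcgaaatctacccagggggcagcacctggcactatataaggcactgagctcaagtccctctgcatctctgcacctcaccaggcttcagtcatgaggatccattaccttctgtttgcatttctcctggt
2610528A11Rik: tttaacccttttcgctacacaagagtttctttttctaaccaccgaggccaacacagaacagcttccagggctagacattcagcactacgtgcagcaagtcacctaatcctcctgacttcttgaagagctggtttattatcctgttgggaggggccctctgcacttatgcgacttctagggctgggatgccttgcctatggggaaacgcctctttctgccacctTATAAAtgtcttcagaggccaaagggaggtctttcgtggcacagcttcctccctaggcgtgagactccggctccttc
Camp: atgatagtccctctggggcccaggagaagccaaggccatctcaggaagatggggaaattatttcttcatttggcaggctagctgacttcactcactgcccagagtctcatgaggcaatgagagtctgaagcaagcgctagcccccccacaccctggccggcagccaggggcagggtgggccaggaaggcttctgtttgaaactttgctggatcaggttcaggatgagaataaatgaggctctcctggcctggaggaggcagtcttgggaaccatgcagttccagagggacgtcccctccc
The C/EBP motif was in the windows of Lcn2, Slpi and Defb3, and in 10.8% of all 32851 windows of the same length. The TATA box motif was in that of 2610528A11Rik, 22 to 27 bases before the start site, and in 13.6% of all windows. The only match in the window of Pglyrp1 was to the NF-kB motif, which was in 4.51% of all windows. The Camp window held no match to any of the 5 motifs. AP-1 (5.2% of all windows) and STAT (8.3%) had no match in the 6 windows, and no 2 matches overlapped. A match describes the letters of a window only.

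All values below are log2 values made with RMA, so that a difference of 1 is a 2-fold change. A gene was called higher or lower where limma's test, with p adjusted by Benjamini-Hochberg over all genes of a comparison, gave less than 0.05. The table holds no detection calls, so whether a low value was above background is unknown. Levels are compared only within a gene. Probes for near-identical defensin paralogs may share signal, which was not tested. Over the 23 arrays, 0 to 23 genes per array lay more than 1 away from the other arrays of their group. Rhbdf2 itself was 0.41 ± 0.09 higher in cub at 0 h by limma (adjusted p = 0.00883) and lower at 24 h (−0.49 ± 0.09, adjusted p = 0.00218), which does not check the genotype of any array, since where its probes lie was not stated. In bulk tissue, fewer cells of a type and less RNA per cell cannot be told apart.

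At 24 h, 7 of the 9 genes had risen against 0 h in both genotypes. In cub ears 21.1% of all genes tested were called higher and 24.9% lower. Of the 9 genes, Defb3, Defb4, Defb14, 2610528A11Rik, Lcn2, Pglyrp1 and Slpi were called higher and Defb1 was called lower, with a median difference over the 9 of 3.49, against −0.00 over all genes. In wild-type ears 20.5% of all genes were higher and 22.4% lower. The same 7 members were higher and none was lower. The median over the 9 was 3.37, against −0.02 over all genes. For each of the 7, every 24 h array lay above every earlier array of both genotypes. The same held for 11.3% of all genes.

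**Figure D1:**
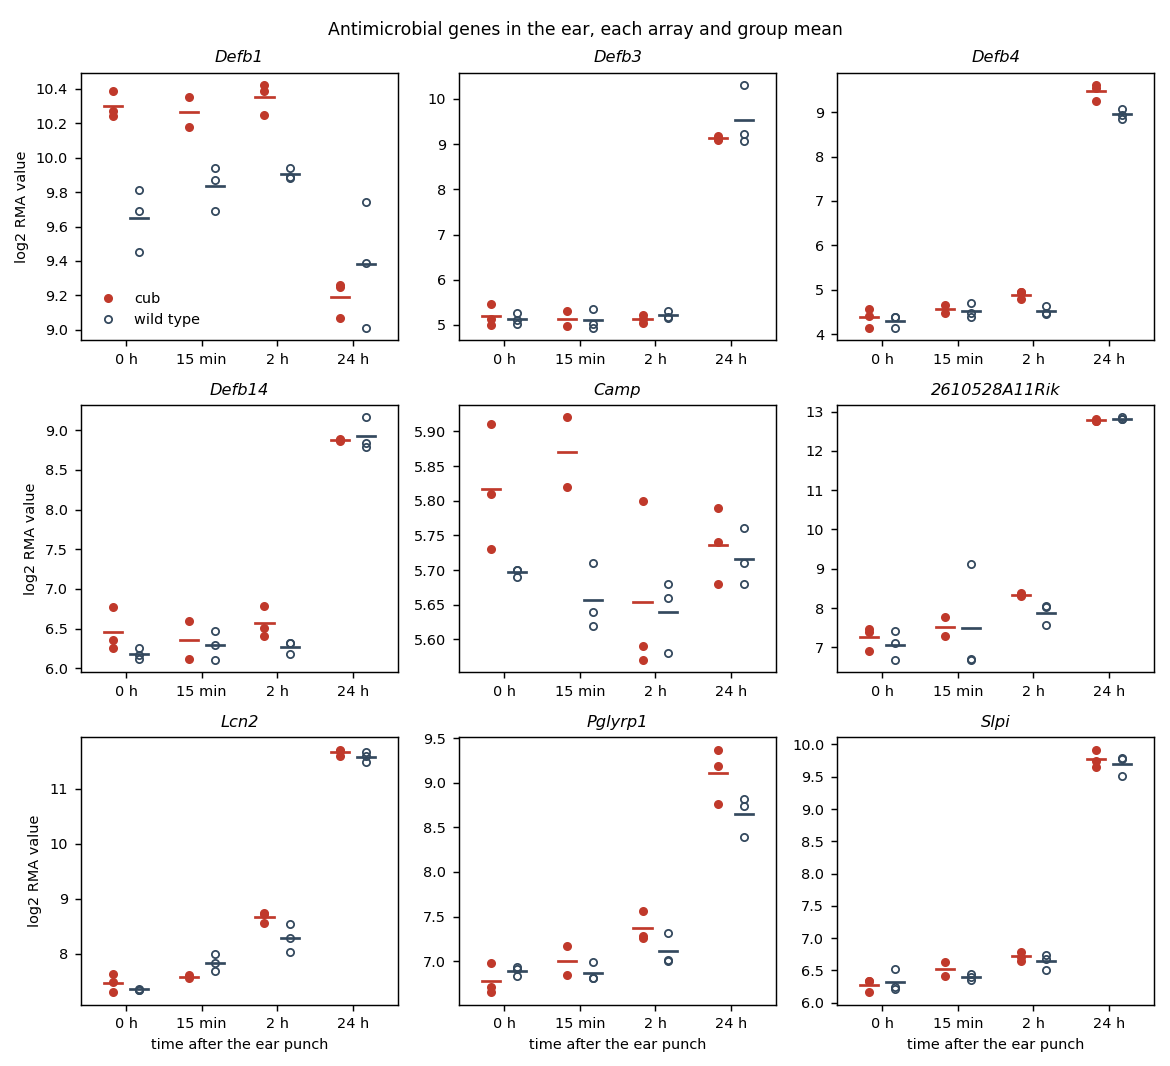
log2 RMA value (vertical axis) of each of the 9 genes by time after wounding (horizontal axis), with cub left of wild type. Points are arrays and bars are group means. At 24 h, 7 genes are separated from all earlier times, and Camp stays between 5.57 and 5.92. The cub arrays of Defb1 before 24 h (10.18 to 10.42) lie above the wild-type ones (9.45 to 9.94).

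Defb4, a defensin that inflamed epithelia switch on, read 4.42, 4.15 and 4.57 in cub ears at 0 h, 4.49 and 4.67 at 15 min, 4.95, 4.95 and 4.79 at 2 h, and 9.55, 9.25 and 9.60 at 24 h. In wild-type ears it read 4.40, 4.14 and 4.39 at 0 h, 4.47, 4.38 and 4.70 at 15 min, 4.63, 4.45 and 4.48 at 2 h, and 9.06, 8.85 and 8.93 at 24 h. The 3 cub arrays at 2 h lay above all cub arrays at 0 h and above the wild-type arrays at 2 h, and the same held between genotypes at 24 h. The 24 h difference from 0 h was 5.09 ± 0.11 in cub (34.0-fold, limma adjusted p = 1.98e-18) and 4.64 ± 0.11 in wild type (24.9-fold, adjusted p = 9.84e-18), with errors given as SE throughout for differences. At 24 h Defb4 averaged 9.47 ± 0.19 in cub and 8.95 ± 0.11 in wild type (SD, n = 3 each). Cub was thus 0.52 ± 0.11 above wild type (1.43-fold, adjusted p = 0.00765), and the call was lost without cub 24 h replicate 3 (adjusted p = 0.0574). The 24 h change in cub minus that in wild type was not called (0.45, adjusted p = 0.225).

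Defb3, another inducible defensin, was at 4.99, 5.13 and 5.46 in cub ears at 0 h, 5.30 and 4.97 at 15 min, 5.05, 5.14 and 5.23 at 2 h, and 9.12, 9.17 and 9.09 at 24 h. Wild-type ears gave 5.03, 5.10 and 5.27 at 0 h, 5.36, 5.02 and 4.93 at 15 min, 5.31, 5.15 and 5.18 at 2 h, and 10.30, 9.23 and 9.06 at 24 h. Arrays at 15 min and 2 h overlapped with those at 0 h. The 24 h rise was 3.93 ± 0.20 in cub (15.3-fold, limma adjusted p = 1.06e-12) and 4.40 ± 0.20 in wild type (21.1-fold, adjusted p = 3.48e-13). Wild-type 24 h replicate 1 stood above the other 5 arrays of that time. The genotype difference at 24 h was −0.40 (95% interval −0.83 to 0.02, adjusted p = 0.304), and −0.02 (adjusted p = 0.971) without that array.

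Defb14, the mouse counterpart of human beta-defensin 3, lay at 6.25, 6.77 and 6.36 in cub ears at 0 h, 6.59 and 6.11 at 15 min, 6.79, 6.51 and 6.40 at 2 h, and 8.89, 8.87 and 8.88 at 24 h. The wild-type values were 6.26, 6.11 and 6.17 at 0 h, 6.47, 6.10 and 6.29 at 15 min, 6.32, 6.18 and 6.32 at 2 h, and 9.16, 8.79 and 8.84 at 24 h. The 24 h groups of the genotypes overlapped, as did those at 0 h. The rise was 2.42 ± 0.14 in cub (5.35-fold, limma adjusted p = 3.35e-12) and 2.75 ± 0.14 in wild type (6.73-fold, adjusted p = 8.25e-13). At 2 h the cub and wild-type arrays did not overlap, but the difference of 0.29 (95% interval 0.01 to 0.57) was not called (adjusted p = 0.268).

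The 4 defensins lie on chromosome 8 in the GRCm38.p6 annotation, where Defb14, Defb4, Defb6, Defb46, Defb5 and Defb3 follow each other with no other protein-coding gene between them, and Defb1 lies farther along. Defb6, which sits next to Defb4, was lower at 24 h by limma (−0.74 in cub, adjusted p = 9.24e-08, and −0.39 in wild type, adjusted p = 0.000371). Defb46 (0.06 in cub and −0.01 in wild type) and Defb5 (0.03 and 0.15) did not pass the test. Of 36 beta-defensins outside the 9 genes, 1 was higher and 2 were lower in cub at 24 h, and 1 was higher and 1 lower in wild type. Of all genes, 21.1% were higher and 24.9% lower in cub, and 20.5% and 22.4% in wild type. In cub ears Defb8 rose by 0.30 (adjusted p = 0.00803) and Defb35 changed by −0.22 (adjusted p = 0.0457). Defb42 rose by 0.16 in wild-type ears (adjusted p = 0.046). The median over the 36 was 0.00 in cub and 0.01 in wild type.

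**Figure D2:**
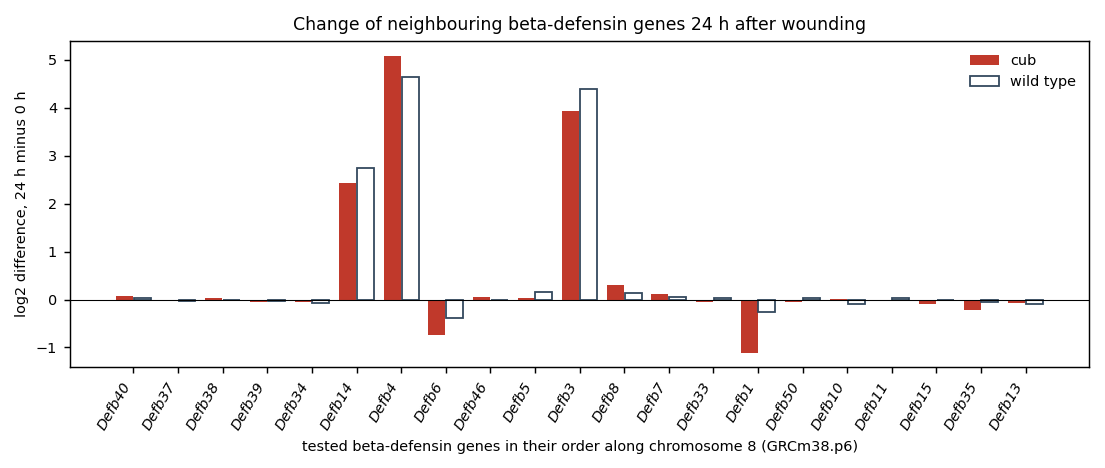
log2 difference between 24 h and 0 h (vertical axis) of the tested beta-defensin genes in their order along chromosome 8 (horizontal axis), in cub and wild type. Defb14, Defb4 and Defb3 stand at 2.42 to 5.09, while Defb6 between them lies at −0.74 in cub and −0.39 in wild type.

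Lcn2 had the largest change of the 9 genes at 2 h in both genotypes. In cub ears it read 7.30, 7.63 and 7.48 at 0 h, 7.61 and 7.56 at 15 min, 8.74, 8.56 and 8.73 at 2 h, and 11.60, 11.71 and 11.69 at 24 h. Wild-type ears gave 7.35, 7.35 and 7.36 at 0 h, 7.99, 7.84 and 7.69 at 15 min, 8.55, 8.29 and 8.03 at 2 h, and 11.60, 11.48 and 11.67 at 24 h. All wild-type arrays at 15 min were above those at 0 h, yet the difference of 0.49 ± 0.10 was not called (limma adjusted p = 0.0892). At 2 h the rise was 1.21 ± 0.10 in cub (2.31-fold, adjusted p = 4.51e-08) and 0.94 ± 0.10 in wild type (1.91-fold, adjusted p = 2.08e-06). At 24 h it was 4.20 ± 0.10 in cub (18.3-fold, adjusted p = 9.36e-18) and 4.23 ± 0.10 in wild type (18.8-fold, adjusted p = 1.12e-17).

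Between genotypes Lcn2 was 0.39 ± 0.10 higher in cub at 2 h (1.31-fold, limma adjusted p = 0.0343), with no overlap of the arrays. The call was lost without cub 2 h replicates 1 or 3 (adjusted p = 0.155 and 0.102) and without wild-type 2 h replicates 2 or 3 (adjusted p = 0.093 and 0.193). At 15 min the 2 cub arrays lay below the 3 wild-type arrays (−0.26, 95% interval −0.49 to −0.02, adjusted p = 0.194). At 24 h the difference was 0.08 (95% interval −0.13 to 0.30, adjusted p = 0.768).

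Pglyrp1, a protein of neutrophil granules and a ligand of Trem1, was at 6.71, 6.65 and 6.98 in cub ears at 0 h, 6.84 and 7.17 at 15 min, 7.28, 7.26 and 7.56 at 2 h, and 8.76, 9.19 and 9.37 at 24 h. Its wild-type values were 6.83, 6.91 and 6.93 at 0 h, 6.81, 6.99 and 6.81 at 15 min, 7.32, 7.01 and 7.0 at 2 h, and 8.74, 8.82 and 8.39 at 24 h. At 2 h both genotypes lay wholly above their 0 h arrays. The 2 h change was called in cub, at 0.59 ± 0.14 (limma adjusted p = 0.00749), and not in wild type, at 0.22 ± 0.14 (adjusted p = 0.439), and the test of the difference between these changes did not pass (0.37, adjusted p = 0.551). The 24 h rise was 2.33 ± 0.14 in cub (5.02-fold, adjusted p = 1.21e-11) and 1.76 ± 0.14 in wild type (3.39-fold, adjusted p = 1.38e-09). The genotype difference at 24 h was 0.46 (95% interval 0.16 to 0.75, adjusted p = 0.0603). Over the 32 alternatives it ran from 0.325 to 0.63 and was called in 2 (adjusted p 0.0139 to 0.322). These were the filter at 6 (adjusted p = 0.0463) and the fit without cub 24 h replicate 1, the lowest cub array (adjusted p = 0.0139).

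Slpi, which guards tissue against the proteases of neutrophils, was at 6.34, 6.16 and 6.34 in cub ears at 0 h, 6.41 and 6.63 at 15 min, 6.79, 6.65 and 6.71 at 2 h, and 9.65, 9.74 and 9.92 at 24 h. The corresponding wild-type arrays read 6.21, 6.24 and 6.53 at 0 h, 6.45, 6.35 and 6.40 at 15 min, 6.67, 6.74 and 6.51 at 2 h, and 9.79, 9.78 and 9.51 at 24 h. The cub arrays at 2 h were all above those at 0 h, whereas the wild-type groups overlapped. The 2 h rise was 0.44 ± 0.10 in cub (limma adjusted p = 0.00377) and 0.31 ± 0.10 in wild type (adjusted p = 0.0474, called in 14 of 32 alternatives). The wild-type call was lost without wild-type 0 h replicates 1 or 2 (adjusted p = 0.182 and 0.188) and wild-type 2 h replicates 1 or 2 (0.133 and 0.192), and at 0.0509 to 0.0597 without any of 10 arrays of other groups. At 24 h it was 3.49 ± 0.10 in cub (11.2-fold, adjusted p = 5.98e-17) and 3.37 ± 0.10 in wild type (10.3-fold, adjusted p = 1.54e-16). The genotype difference at 24 h was 0.08 (95% interval −0.12 to 0.28, adjusted p = 0.773).

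Neutrophil markers moved with these genes. A list of 15 tested markers held no antimicrobial gene, and its mean level per array was 6.45 to 6.58 in cub and 6.40 to 6.47 in wild type at 0 h, 7.32 to 7.42 in cub and 6.78 to 7.08 in wild type at 2 h, and 9.24 to 9.65 in cub and 8.80 to 9.11 in wild type at 24 h. At 24 h all 15 were higher than at 0 h in both genotypes, with medians of 3.04 in cub and 2.66 in wild type. Of all genes, 21.1% were higher and 24.9% lower in cub, and 20.5% and 22.4% in wild type. The list was chosen with earlier results of these data known. It holds Clec4d and Clec4e, which are among the genes most like Lcn2 over these arrays, so its counts are a description only. At 2 h, 8 were higher in cub than in wild type and 0 lower, where 3.84% of all genes were higher. Macrophage and monocyte markers gave 7 higher and 0 lower of 15, and neutrophil granule proteins 2 higher and 0 lower of 17. For the difference of the 2 h change, 0 of the 15 neutrophil markers were called. Keratinocyte markers, which number 9, averaged 12.23 to 12.31 in cub arrays and 12.03 to 12.09 in wild-type arrays at 0 h. In the same order they averaged 12.15 to 12.25 and 12.01 to 12.12 at 15 min, and 12.18 to 12.25 and 12.08 to 12.17 at 2 h. At 24 h they overlapped, at 12.05 to 12.13 and 12.03 to 12.08. Between genotypes 1 of these markers was called higher in cub at each time and 0 lower. The median of cub minus wild type over the 9 was 0.10 at 0 h, 0.06 at 15 min, 0.01 at 2 h and −0.02 at 24 h. The largest difference was 1.14, 0.80, 0.76 and 0.43 in the same order, so the means above do not describe most of the list. They moved both ways at 24 h against 0 h. In cub 2 were higher and 6 lower (−1.63 to 1.43), and in wild type 3 higher and 3 lower (−1.27 to 1.29). What part changes in cell makeup had in the members' rise was not tested.

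2610528A11Rik had the largest 24 h change of the 9 genes in both genotypes. In cub ears it was at 6.91, 7.39 and 7.47 at 0 h, 7.28 and 7.77 at 15 min, 8.32, 8.30 and 8.38 at 2 h, and 12.81, 12.77 and 12.75 at 24 h. In wild-type ears it was at 6.67, 7.42 and 7.11 at 0 h, 9.11, 6.67 and 6.70 at 15 min, 8.04, 7.56 and 8.03 at 2 h, and 12.85, 12.81 and 12.80 at 24 h. The 6 arrays at 24 h lay between 12.75 and 12.85, and the 2 h arrays of each genotype were all above its 0 h arrays. Its rise of 5.52 ± 0.39 in cub (45.9-fold, limma adjusted p = 1.4e-10) ranked 8 among the 19938 genes. In wild type the rise of 5.75 ± 0.39 (53.9-fold, adjusted p = 1.19e-10) ranked 5. The genotype difference at 24 h was −0.04, with a 95% interval of −0.86 to 0.77.

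One array widened this gene's error. Wild-type 15 min replicate 1 read 2.43 above the mean of the other 2 arrays of its group, and only Krt16 (2.96) and Krt6b (2.69), keratins of injured and growing epidermis, stood out more. Alox8, Sprr1b, Gsdmc and Sprr2d followed with 2.01 to 2.22. Krt6b (r = 0.993) and Krt16 (r = 0.992) were also the genes whose values were most like those of 2610528A11Rik over the 23 arrays, and over the 17 arrays before 24 h r was 0.881 and 0.912. Cd44, a hyaluronan receptor, came next (r = 0.988, and 0.828 before 24 h). With this array, the 2 h change was 1.08 ± 0.39 in cub (limma adjusted p = 0.0806) and 0.81 ± 0.39 in wild type (adjusted p = 0.251). Without it, the changes were of the same size with less error, 1.08 ± 0.16 in cub (adjusted p = 0.000132) and 0.81 ± 0.16 in wild type (adjusted p = 0.00334). Leaving out the highest wild-type array of 15 min could only raise cub minus wild type there and on average. It left 2 arrays per genotype at 15 min. Cub was then 0.84 ± 0.20 higher than wild type at 15 min (adjusted p = 0.0433), against 0.03 with the array. Averaged over the 4 times it was 0.36 ± 0.09 higher (adjusted p = 0.00684), against 0.16. The 15 min change in cub minus that in wild type was not called without the array (0.65, adjusted p = 0.759).

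**Figure D3:**
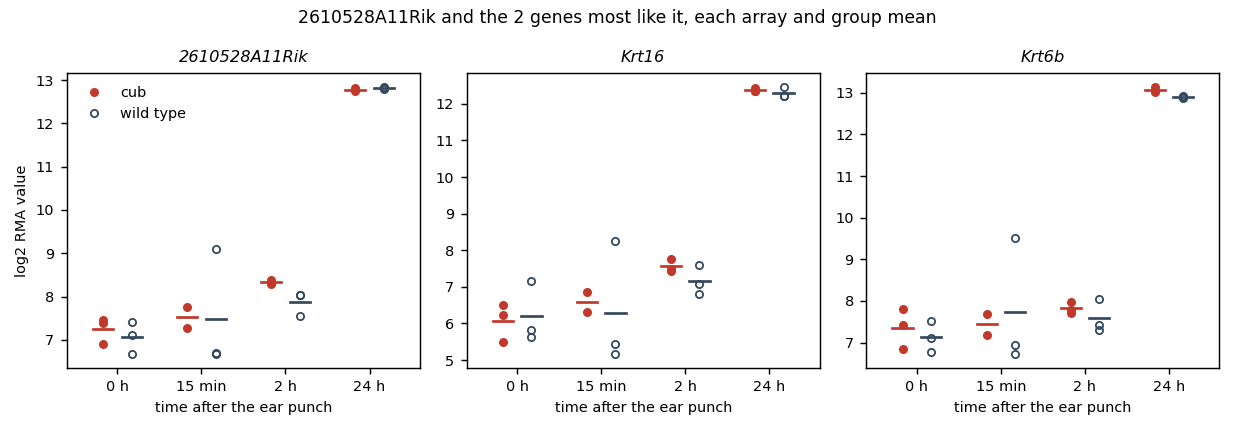
log2 RMA value (vertical axis) of 2610528A11Rik, Krt6b and Krt16 by time after wounding (horizontal axis), in cub and wild type, with points for arrays and bars for group means. In all 3 panels wild-type 15 min replicate 1 lies above the other arrays of its group, for 2610528A11Rik at 9.11.

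Camp, the cathelicidin, did not follow the others. Cub ears gave 5.91, 5.73 and 5.81 at 0 h, 5.92 and 5.82 at 15 min, 5.57, 5.80 and 5.59 at 2 h, and 5.74, 5.68 and 5.79 at 24 h. Wild-type ears gave 5.70, 5.70 and 5.69 at 0 h, 5.62, 5.71 and 5.64 at 15 min, 5.66, 5.58 and 5.68 at 2 h, and 5.68, 5.71 and 5.76 at 24 h. At 24 h both genotypes overlapped with their own 0 h arrays. The 24 h differences of −0.08 in cub (95% interval −0.21 to 0.05, limma adjusted p = 0.332) and 0.02 in wild type (95% interval −0.11 to 0.15, adjusted p = 0.847) were not called. Averaged over the times, cub was 0.09 ± 0.03 higher (adjusted p = 0.0494), a call that was kept in 10 of 31 alternatives. Other proteins of the neutrophil granule made a mixed picture: of 17 tested, 11 were higher and 1 lower at 24 h in cub, and 8 were higher and 0 lower in wild type. The shares of all genes were 21.1% higher and 24.9% lower in cub, and 20.5% and 22.4% in wild type. Chil3, a chitinase-like protein, rose by 4.10 in cub (adjusted p = 1.26e-15) and 2.58 in wild type (adjusted p = 2.65e-12). By contrast Mpo, Elane, Prtn3 and Bpi, named after their values were seen, lay between −0.06 and 0.05 in both genotypes and were not called.

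Defb1, the defensin that epithelia make without a stimulus, fell by 24 h in cub ears, and its change in wild-type ears was not called. In cub ears it read 10.39, 10.27 and 10.24 at 0 h, 10.35 and 10.18 at 15 min, 10.42, 10.25 and 10.39 at 2 h, and 9.26, 9.25 and 9.07 at 24 h. In wild-type ears it read 9.81, 9.45 and 9.69 at 0 h, 9.69, 9.87 and 9.94 at 15 min, 9.89, 9.88 and 9.94 at 2 h, and 9.74, 9.39 and 9.01 at 24 h. Before 24 h the 8 cub arrays (10.18 to 10.42) lay above all 9 wild-type arrays (9.45 to 9.94), and at 24 h the genotypes overlapped. Defb1 averaged 10.30 ± 0.08 in cub and 9.65 ± 0.18 in wild type at 0 h (SD, n = 3 each). The difference was 0.65 ± 0.12 (1.57-fold, limma adjusted p = 0.00433) and was called in all 32 alternatives. It was 0.43 ± 0.14 at 15 min (adjusted p = 0.0813) and 0.45 ± 0.12 at 2 h (adjusted p = 0.0425, called in 17 of 32 alternatives). The 2 h call was lost without any single array of that time (adjusted p = 0.0518 to 0.177), and at 0.0505 to 0.0516 without any of 5 arrays of other times. At 24 h the difference was −0.19 (95% interval −0.45 to 0.07, adjusted p = 0.478).

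By 24 h Defb1 had fallen in cub to 2.15-fold below its 0 h level (−1.11 ± 0.12, limma adjusted p = 1.56e-07). In wild type the change was −0.27 ± 0.12 (adjusted p = 0.0902). Without wild-type 24 h replicate 1, which was the highest of its group, the change in wild type was −0.45 ± 0.11 (adjusted p = 0.00227). Over the 32 alternatives the wild-type change ran from −0.45 to −0.085 and was called in 4 (adjusted p 0.00227 to 0.61). The 24 h change in cub minus that in wild type was −0.84 ± 0.18 (adjusted p = 0.023), where 0.747% of all genes were called lower. Of the 9 genes it was the only one with a called difference of this kind at any time, with 0%, 0.13% and 1% of all genes called in either direction at 15 min, 2 h and 24 h. The 26 genes behind the share at 2 h were 1 without cub 0 h replicate 2 or wild-type 0 h replicate 2, 2 without cub 2 h replicate 1 or wild-type 2 h replicate 2, 4 without wild-type replicate 3 of 0 h or of 2 h, and 45 without cub 2 h replicate 2, and the 200 genes at 24 h ranged between 83 without wild-type 0 h replicate 2 and 317 without cub 24 h replicate 2. The call was kept without wild-type 24 h replicate 1 (−0.66, adjusted p = 0.0404), and lost without cub 0 h replicates 1 or 2 (adjusted p = 0.0642 and 0.0505), cub 24 h replicate 3 (adjusted p = 0.072) or wild-type 0 h replicate 2 (adjusted p = 0.0787).

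**Figure D4:**
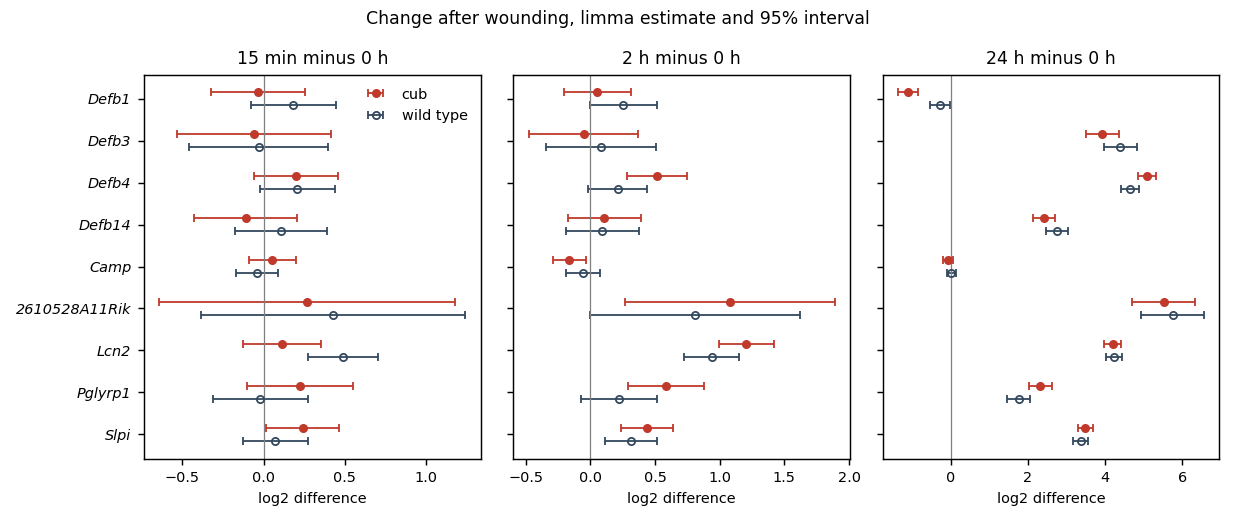
log2 difference from 0 h (horizontal axis) at 15 min, 2 h and 24 h for the 9 genes, as limma estimate and 95% interval, in cub (filled) and wild type (open); the 3 panels have different scales. At 24 h Defb1 lies at −1.11 in cub and −0.27 in wild type, and 7 genes lie at 1.76 to 5.75 over both genotypes.

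Over the 9 genes, few genotype differences were called. At 0 h it was 1 gene higher in cub (Defb1, where 3.33% of all genes were higher), at 15 min 0 (1.57% higher, and 3 of the 9 genes had an unadjusted p under 0.05), at 2 h 2 (Defb1 and Lcn2, 3.84% higher) and at 24 h 1 (Defb4, 2.24% higher). Averaged over the times it was 3 (9.71% higher): Defb1 by 0.34 ± 0.06 (limma adjusted p = 0.000961), Defb4 by 0.26 ± 0.06 (adjusted p = 0.00318) and Camp. No gene of the 9 was called lower in cub by limma, where 1.93%, 1.88%, 0.577% and 3.44% of all genes were lower in order of time, and 8.56% on average. The arrays of the genotypes did not overlap, with cub higher, for 2 of the 9 at 0 h (Defb1 and Camp, where 11.3% of all genes did so), and for 2 at 15 min (Defb1 and Camp, 22.4%). The same was found for 5 at 2 h (Defb1, Defb4, Defb14, 2610528A11Rik and Lcn2, 13.6%) and for 1 at 24 h (Defb4, 8.41%). With cub lower it was found once, for Lcn2 at 15 min, where 15.6% of all genes did so.

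**Figure D5:**
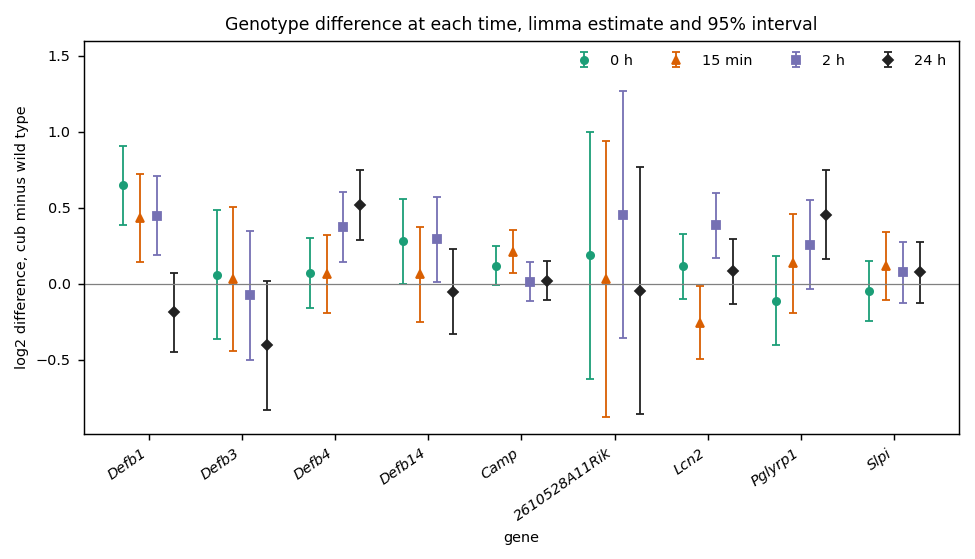
log2 difference, cub minus wild type (vertical axis), at 0 h, 15 min, 2 h and 24 h for each of the 9 genes (horizontal axis), as limma estimate and 95% interval. Defb1 is at 0.65, 0.43, 0.45 and −0.19 in order of time, and Defb4 reaches 0.52 at 24 h.

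After 15 min none of the 9 genes was called in either genotype by limma, when 0.0251% of all genes were called in cub and 0.0351% in wild type. These shares are 5 and 7 genes and rest on single arrays. In cub the count was 838 without cub 15 min replicate 2 and 0 without cub 0 h replicate 2 or cub 15 min replicate 3. In wild type it was 27 without cub 0 h replicate 2 and 0 without wild-type 0 h replicate 3 or wild-type 15 min replicates 1 or 3. Among the 9 genes, an unadjusted p under 0.05 was found for 1 in cub (Slpi) and 1 in wild type (Lcn2). At 2 h, 4 of the 9 were higher in cub than at 0 h (Defb4 by 0.52 ± 0.11, adjusted p = 0.00316, with Lcn2, Pglyrp1 and Slpi), where 7.66% of all genes were higher and 4.28% lower. In wild type 2 were higher (Lcn2 and Slpi), where 3.98% of all genes were higher and 4% lower.

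The 3 genes most alike each member over the 23 arrays are a description, since for the 7 genes that rose the 6 arrays at 24 h set r. For Lcn2 they were S100a8 (r = 0.993), a calcium-binding protein of neutrophils and injured keratinocytes, with the myeloid lectins Clec4e and Clec4d (r = 0.992 for both). Over the 17 earlier arrays r with Lcn2 was 0.986, 0.962 and 0.917 for these. For Pglyrp1 they were Mirt2 (r = 0.989), Gm5150 (r = 0.987) and Trem1 (r = 0.985), a receptor of neutrophils and monocytes, with 0.876, 0.874 and 0.872 before 24 h. For Slpi they were the neutrophil chemokine gene Cxcl5 and Acod1, which makes itaconate (r = 0.995 for both), and Slfn4 (r = 0.994), with 0.702, 0.740 and 0.835 before 24 h. For the defensins that rose, r before 24 h was 0.678 or lower. Defb4 was most like Nppb, a natriuretic peptide gene (r = 0.996), Cxcl5 (r = 0.995) and Csta3 (r = 0.994), with 0.678, 0.427 and 0.047 before 24 h. Defb3 was most like the cornified envelope genes Sprr2g (r = 0.993) and Sprr2f (r = 0.992) and like Csta3 (r = 0.992), with 0.649, 0.348 and 0.292. Defb14 was most like the aldo-keto reductase gene Akr1b8 (r = 0.988), Upp1 and Ms4a4c (r = 0.986 for both), with 0.554, 0.594 and 0.558. Neither Defb1 nor Camp rose at 24 h. Defb1 was most like Csnk2a2 and Car6, a secreted carbonic anhydrase (r = 0.930 for both), and the EGF receptor ligand gene Btc (r = 0.924), with 0.879, 0.961 and 0.948 before 24 h. Camp was most like Wdr25 (r = 0.815), Ubxn10 (r = 0.734) and Sebox (r = 0.727), with 0.861, 0.810 and 0.812 before 24 h.

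Genes that act beside the 9 moved as follows. Of 36 other antimicrobial proteins tested, 21 were higher and 4 lower at 24 h in cub, and 17 higher and 5 lower in wild type, by limma. The shares of all genes were 21.1% higher and 24.9% lower in cub, and 20.5% and 22.4% in wild type. S100a8 rose by 5.72 ± 0.23 in cub (adjusted p = 1.64e-14) and by 5.60 ± 0.23 in wild type (adjusted p = 3.83e-14). Saa3, an acute-phase protein, averaged 8.80 ± 0.31 in cub and 7.67 ± 0.59 in wild type at 24 h (SD, n = 3 each), and the genotypes differed by 1.13 ± 0.19. Its 24 h change was also larger in cub, by 1.21 ± 0.26. Ccl28, an epithelial chemokine with antimicrobial activity, was lower in cub at all 4 times, by −0.69, −0.53, −0.72 and −0.49 in order of time.

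Of 34 tested genes on the routes that induce such proteins (interleukin 1, interleukin 17, interleukin 22, toll-like receptors and NF-kB), 16 were higher and 1 lower at 2 h in cub, and 13 higher and 0 lower in wild type, by limma. At 24 h, 24 were higher and 2 lower in each genotype. Of all genes, 7.66% were higher and 4.28% lower at 2 h in cub, and 3.98% and 4% in wild type. At 24 h these shares were 21.1% and 24.9% in cub, and 20.5% and 22.4% in wild type. Il6 had risen at 2 h by 4.50 ± 0.22 in cub (adjusted p = 1.16e-11) and by 4.51 ± 0.22 in wild type (adjusted p = 8.24e-12). Il1b was up at 24 h by 6.60 ± 0.24 in cub (adjusted p = 6.42e-15) and 5.90 ± 0.24 in wild type (adjusted p = 5.85e-14). Il17a, named for its place in the background, was not called at 24 h in cub (−0.04, adjusted p = 0.585) or in wild type (−0.03, adjusted p = 0.761). Between genotypes 7 of the 34 were higher in cub at 24 h and 0 lower, where 2.24% of all genes were higher and 3.44% lower. Il6 was at 0.84 ± 0.22 (adjusted p = 0.0254) and Tlr4, the receptor for bacterial lipopolysaccharide, at 0.48 ± 0.09 (adjusted p = 0.00223).

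Receptors and partners differed in direction. Trem1 rose at 24 h by 5.42 ± 0.19 in cub (limma adjusted p = 2.51e-15) and by 4.90 ± 0.19 in wild type (adjusted p = 1.93e-14), and was 0.88 ± 0.19 higher in cub at 2 h (adjusted p = 0.00935). Slc22a17, a receptor for Lcn2, fell at 24 h in cub (−0.56 ± 0.08, adjusted p = 8.45e-06) and in wild type (−0.85 ± 0.08, adjusted p = 3.89e-08). Gpr15, the receptor for the product of 2610528A11Rik, was not called at 24 h (0.07 in cub, adjusted p = 0.64, and 0.16 in wild type, adjusted p = 0.211). Of 18 proteases and inhibitors that process these proteins or meet them, 4 were higher in cub at 0 h and 0 lower, where 3.33% of all genes were higher and 1.93% lower. These were Ctsg, the cathepsin G that Slpi blocks, by 0.77 ± 0.18 (adjusted p = 0.0135), and the epidermal kallikreins Klk8, Klk7 and Klk5 by 0.57, 0.41 and 0.33.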

How the data were processed

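The authors deposited log2 values for which the submitters' processing notes name RMA and Affymetrix Expression Console 1.1. For the annotation release, the summarization level and the genome build, nothing was found in the labels or headers. Arrays had medians of 6.37 to 6.46, and their number limits the precision.

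Of 35556 rows, 21789 carried 1 gene symbol; 999 genes had several rows and were read from that of highest mean, leaving 19938 genes. limma 3.58.1 in R 4.3.3 fitted 1 mean per group over the 23 arrays (15 residual degrees of freedom, 5.61 prior), for 14 comparisons with Benjamini-Hochberg adjustment. The limma fit was tested on simulated data. The authors' R/maanova comparisons were not rerun. Each p-value sets a difference of group means against the spread of arrays within groups. That spread was estimated over all 8 groups and moderated by limma, so arrays of groups not compared also affect it.

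The 9 genes and all lists were chosen with earlier results of these data known. Named were all 9 genes, Rhbdf2, per gene the 3 others with the highest Pearson correlation, and, among the up to 4 called genes with the largest difference per list and comparison, those that bear on the 9. Outside this rule, Gpr15, Il17a, Mpo, Elane, Prtn3, Bpi and the defensins beside Defb4 and Defb3 were named for their role or place, after their values were seen. Deviations of same-numbered arrays from their group means had r from −0.296 to 0.258 over 11 pairs, 5 above 0.1. With so few arrays a group, this cannot decide whether the numbers pair arrays. The main fit used no pairing. Promoter windows and gene order came from RefSeq (GRCm38.p6). Alternatives were other scalings, a filter at 6, every row, other moderation, array weights, only the groups compared, the replicate block, and each array left out.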

Additional observations from a re-analysis of the deposited data

Results flagged for a closer look

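The 24 h change of Defb1 differed between genotypes by a test of the difference itself. The change in cub minus that in wild type was −0.84 ± 0.18 (limma adjusted p = 0.023). At 24 h the level was 9.19 ± 0.11 in cub and 9.38 ± 0.37 in wild type, and at 0 h it was 10.30 ± 0.08 in cub and 9.65 ± 0.18 in wild type (SD, n = 3 each). No cause was tested.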

How the results depend on the processing

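Over 32 alternatives, 23 of the 29 called differences of the 9 genes were called in every alternative that gave a value, and 0 changed sign. The other 6 were Defb1 at 2 h (cub minus wild type, 17 of 32, adjusted p 0.00802 to 0.177), Lcn2 at 2 h (22 of 32, 0.00526 to 0.193), Defb4 at 24 h (31 of 32, 0.00164 to 0.0574), Camp on average (10 of 31, 0.0277 to 0.122), Slpi at 2 h in wild type (14 of 32, 0.00303 to 0.192) and the difference of the 24 h change of Defb1 (25 of 32, 0.00114 to 0.111). Of 97 differences not called, 11 were called in some alternative. Camp gave no value with the filter at 6.

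The count of the 9 genes called between genotypes at 2 h, 2 in the report, was 0 after median-centring, 1 after quantile normalization, 0 with every row, 0 with no moderation and 1 with array weights, and 0 to 3 with each array left out. At 24 h, 1 in the report, it was 2 with the filter at 6, and 0 to 2 with each array left out. At 15 min it was 0 to 1 with each array left out. For wild type at 15 min, 0 in the report, it was 1 with array weights (Lcn2, adjusted p = 0.0282) and 0 to 1 with each array left out. For wild type at 2 h, 2 in the report, it was 1 with every row, 1 with the replicate block and 1 with no moderation, and 1 to 2 with each array left out. For the difference of the 24 h change, 1 in the report, it was 0 with every row, 0 with only the groups compared and 0 with no moderation, and 0 to 1 with each array left out. The replicate block ended the calls of Slpi at 2 h in wild type (adjusted p = 0.06) and of Camp on average (adjusted p = 0.0718), and made one for Defb4 at 2 h, cub minus wild type (adjusted p = 0.0163). The causes were not tested.

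Counts over all genes moved by over 1.5 times as well. With only the groups compared, cub minus wild type gave 514 genes at 0 h, 67 at 15 min and 258 at 24 h, against 1047, 688 and 1133. Array weights gave 1804, 218 and 1590 genes at 0 h, 15 min and 2 h, against 880 at 2 h in the report. They also gave 4112 in cub and 2712 in wild type at 2 h after wounding, against 2381 and 1590, and 389 in wild type at 15 min, against 7. The difference of the 24 h change gave 120 genes with every row, 74 with only the groups compared, 131 with no moderation and 437 with array weights, against 200. With the replicate block, 414 genes were called between genotypes at 15 min. The difference of the 2 h change gave 2 genes with every row, 10 with only the groups compared, 4 with the replicate block, 1 with no moderation and 173 with array weights, against 26. The 15 min change gave 0 to 16 genes in cub, against 5, over the settings that keep all arrays. With each array left out, the 2 h change in wild type gave 983 to 1741 genes, and cub minus wild type gave 322 to 1174 genes at 0 h, 29 to 2025 at 15 min, 329 to 973 at 2 h and 443 to 1364 at 24 h.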

Other observations

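Mean levels of gene lists for other cells of the ear also differed between 24 h and 0 h. Skeletal muscle genes, 15 tested, averaged 10.03 to 10.19 per array in cub and 9.68 to 10.08 in wild type at 24 h, against 10.87 to 10.93 in cub and 10.53 to 10.73 in wild type at 0 h. Sebaceous gland genes, 11 tested, averaged 9.21 to 9.28 in cub and 9.25 to 9.34 in wild type at 24 h, against 9.75 to 10.00 in cub and 9.55 to 9.67 in wild type at 0 h. Between genotypes at 0 h, 2 of the 11 were called higher in cub and 2 lower, with a median of −0.08 and a range of −0.58 to 2.48. The 24 h change in cub minus that in wild type had a median of −0.03 over the 11, and 1 was called, as lower. Macrophage and monocyte markers, 15 tested, averaged 8.90 to 9.26 in cub and 8.61 to 8.95 in wild type at 24 h, against 7.83 to 8.32 in cub and 7.67 to 7.80 in wild type at 0 h.

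Lyz1, a lysozyme gene, was at 10.86 ± 0.01 in cub and 10.00 ± 0.28 in wild type at 2 h, and at 10.19 ± 0.08 in cub and 9.44 ± 0.24 in wild type at 24 h (SD, n = 3 each). Retnla, a resistin-like protein, was 1.58 ± 0.32 higher in cub at 0 h. Mrgprb2, a mast cell receptor for cationic peptides, was lower at 24 h than at 0 h by limma, at −1.06 ± 0.19 in cub (adjusted p = 5.54e-05) and −0.84 ± 0.19 in wild type (adjusted p = 0.000728).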
